A study of Mus musculus with 20 samples.

Results

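The proteasome subunits and their assembly factors were followed through 6 kinds of mouse cells, from germline stem cells and the pluripotent cells grown out of them to fibroblasts. Every gene whose symbol on the array is Psma, Psmb, Psmc, Psmd, Psme, Psmf or Psmg followed by digits was taken, which gave 47 of the 18193 genes tested. The symbol rule uses no measured value, but the gene family was picked with earlier results of these data known. Each gene was read from 1 probe set, the one with the highest mean over the 20 arrays, and 26 of the 47 genes had others. Psme2 is not reported because its only probe set is shared with Psme2b. The symbols Psmc3ip and Psme3ip1 do not match the rule and are not subunits.

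Germline pluripotent stem cells (gPS, 5 arrays) came from round colonies, bright with green fluorescent protein, that arose within 3 to 4 weeks where about 1000 germline stem cells had been left on fibroblasts. They were then expanded in medium for embryonic stem cells. ESC_like cells (3 arrays) were derived from testes at postnatal day 0 to 2 and supplied by another laboratory. Germline stem cells (GSC, 3 arrays) were grown with GDNF and other growth factors from testes of OG2 mice, B6;CBA animals with the transgene Pou5f1-EGFP, and gPS cells carry the same transgene. Neural stem cells (NSC, 3 arrays) were made in culture from Olig2-GFP embryonic stem cells, and embryonic fibroblasts (MEF, 3 arrays) came from C3H embryos. Embryonic stem cells (ESC, 3 arrays) were of the RW4 line. The groups differ in strain and culture medium as well as in cell type, and these cannot be told apart. GSC, gPS, ESC_like and ESC cells all grew on feeder fibroblasts. The labels name no separate cultures for the arrays of a group, and p-values here therefore reflect array-to-array spread that may be technical. In such bulk RNA, fewer cells of a type and less RNA per cell cannot be told apart.

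The proteasome is the protease that takes apart proteins tagged with ubiquitin. Its 20S core is a barrel of alpha and beta rings with the catalytic sites inside, and the 19S cap, built of an ATPase ring and a lid, recognises, unfolds and feeds in the substrate. In cells of the immune system, or after interferon gamma, the catalytic beta subunits are replaced by Psmb8, Psmb9 and Psmb10, the immunoproteasome subunits, and the core is capped by the PA28 activator, of which Psme1 encodes the alpha chain. Germ cells of the testis use a further variant with the alpha subunit Psma8.

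The markers of each labelled cell type were present in their own group: 5 of 5 pluripotency genes had a group mean above 7 (log2) in gPS, ESC_like and ESC cells, 5 of 5 germ line genes in GSC, 5 of 5 neural genes in NSC and 6 of 6 fibroblast genes in MEF. All levels below are log2 intensities, and the median of all values was 4.98, so a level near or under it may be background. The array medians ran from 4.95 to 5.04. gPS replicate 1 correlated least with its own group (mean r 0.979, against up to 0.997 elsewhere). GSC replicate 1 had an Actb 3' minus 5' difference of 1.25, a sign of shorter RNA, against 0.51 and 0.49 in the other GSC arrays. Without gPS replicate 1 the proteasome calls below stayed as they are, save for Psma8, and without GSC replicate 1 all of them stayed.

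Most proteasome genes varied little among the cell types. The tissue-restricted Psma8, the immune subunits, most activators, a few assembly factors and a few 19S subunits varied most. The difference between the highest and the lowest group mean had a median of 0.68 over the 47 proteasome genes, against 1.04 over all genes. It was at least 1, which is 2-fold, for 13 of the 47 (27.7%), against 51.6% of all genes. Of these 13, 3 were constitutive 19S subunits, Psmd8 (1.56), Psmd2 (1.36) and Psmd3 (1.02). Proteasome transcripts are abundant, and among genes with a mean level over 10 the median was 0.59 for 31 proteasome genes and 1.15 for all 1253 such genes. By role, the median range was 0.38 for the alpha ring, 0.48 for the constitutive catalytic subunits, 0.56 for the other beta subunits, 0.66 for the 19S ATPases and 0.73 for the other 19S subunits. It was 0.68 for the 19S and 1.06 for the 20S assembly chaperones, 1.44 for the activators with the inhibitor, 2.41 for the immune subunits and 3.02 for the tissue-restricted pair, Psma8 with 5.56, the largest of the 47, and Psmb11 with 0.48. The moderated F test over the 6 groups was passed by 39 of the 47 genes, beside 75.3% of all genes. Psma2, Psma5, Psma6, Psmb2, Psmb7, Psmc2, Psmd6 and Psmg3 did not pass it.

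**Figure D1:**
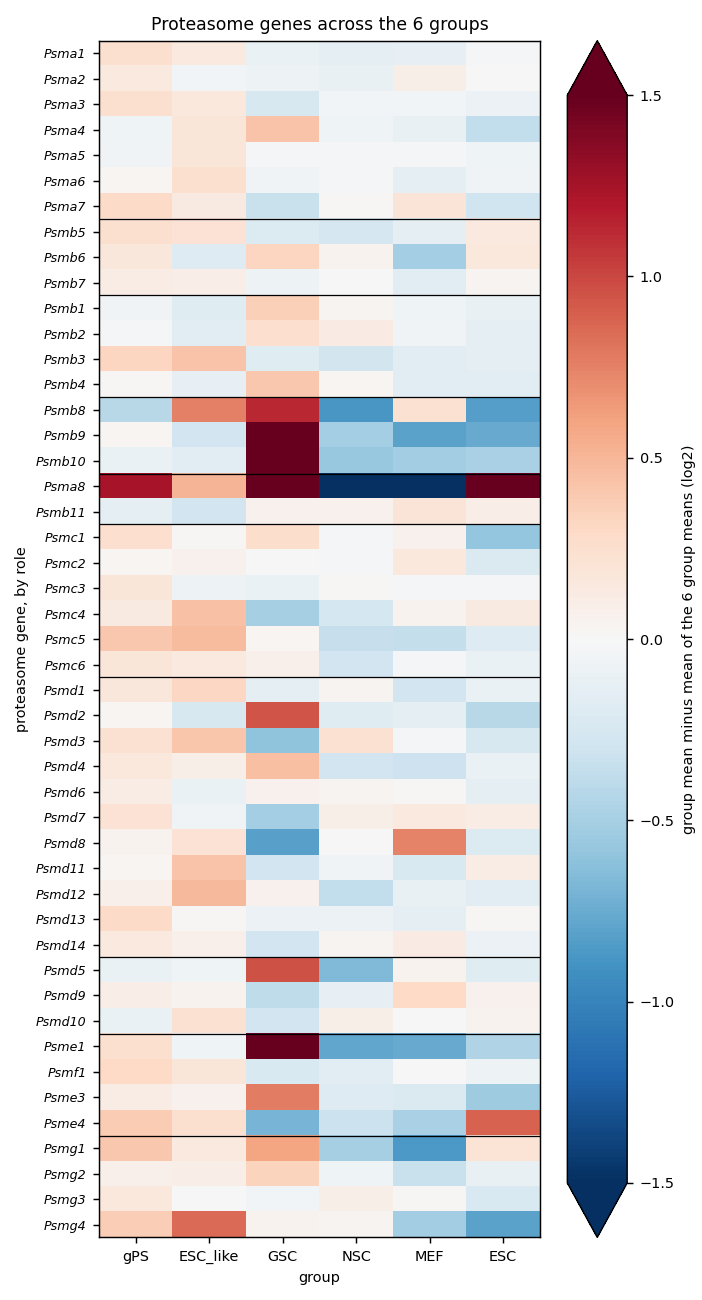
Colour shows each proteasome gene's group mean minus the mean of its 6 group means (log2), with genes in rows by role and the groups in columns, and the scale saturates at 1.5 in either direction. Psmb8, Psmb9, Psmb10 and Psme1 stand out in the GSC column, Psma8 is low in NSC and MEF, and most constitutive subunits are pale throughout.

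A gene was called when its Benjamini-Hochberg adjusted p, over all genes, was under 0.05 and the groups differed at least 2-fold. Between gPS cells and GSC 6 proteasome genes were called, 1 higher and 5 lower, which is 12.8% of them, beside 20.0% of all genes (9.10% higher and 10.9% lower). Between gPS cells and ESC 2 were called (4.26%, beside 4.49% of all genes), and between gPS and ESC_like cells 1 (2.13%, beside 4.85%). ESC_like cells differed from ESC in 3 proteasome genes (6.38%, beside 7.21%). GSC differed from ESC in 8, of which 7 were higher and 1 lower (17.0%, beside 23.3% of all genes, 13.1% higher and 10.2% lower). NSC differed from ESC in 2 (4.26%, beside 21.4%) and MEF from ESC in 4 (8.51%, beside 23.4%). These 26 calls fall on 11 genes, and no comparison had a larger share of called proteasome genes than of called genes in general. The comparisons share the gPS or the ESC arrays, so that their calls are not independent.

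With the adjusted p alone and no fold threshold, the share of proteasome genes that passed was above that of all genes in some comparisons and below it in others. That threshold was passed by 31 of the 47 between gPS cells and GSC (66.0%), beside 50.9% of all genes, and between gPS cells and ESC 20 passed (42.6%), beside 25.0%. Between ESC_like cells and ESC 17 passed (36.2%, beside 28.2%), and between GSC and ESC 24 (51.1%, beside 50.3%). The share was under that of all genes between gPS and ESC_like cells, with 9 (19.1%, beside 29.3%), between NSC and ESC, with 10 (21.3%, beside 47.4%), and between MEF and ESC, with 11 (23.4%, beside 48.6%). Bright genes passed more often, so the 31 proteasome genes with a mean level over 10 were also set beside all 1253 such genes. Of these 31, 20 passed between gPS cells and GSC (64.5%, beside 71.0% of the bright genes), 12 between gPS cells and ESC (38.7%, beside 32.6%) and 14 between GSC and ESC (45.2%, beside 70.4%). Against genes of like level, the share between gPS cells and GSC was thus near the background and not above it.

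The immunoproteasome subunits were highest in GSC. Psmb9, the immune form of the caspase-like catalytic subunit, stood at 5.21, 5.00, 5.78, 5.61 and 6.09 in the gPS arrays, 5.44, 5.11 and 5.11 in ESC_like and 7.94, 7.88 and 7.65 in GSC. It stood at 5.20, 4.89 and 4.90 in NSC, 4.74, 4.93 and 4.44 in MEF and 4.87, 4.40 and 4.96 in ESC. All 3 GSC arrays lay above every other array, and the other groups lay near the median of all values. Psmb9 was lower in gPS cells than in GSC by a log2 difference of -2.29 ± 0.20 (SE, adjusted p = 2.98e-09), and it was higher in GSC than in ESC by 3.08 ± 0.22 (SE, adjusted p = 1.75e-10). Between gPS cells and ESC, whose arrays did not overlap, the difference of 0.79 ± 0.20 (SE, adjusted p = 0.00485) fell short of 2-fold.

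Psmb10, the immune form of the trypsin-like subunit, was at 8.29, 7.65, 7.51, 7.43 and 7.64 in gPS, 7.79, 7.53 and 7.60 in ESC_like and 9.66, 9.55 and 9.70 in GSC. Its levels were 7.28, 7.30 and 7.12 in NSC, 7.39, 7.27 and 7.19 in MEF and 7.41, 7.46 and 7.08 in ESC. GSC again lay above every other array, while gPS replicate 1 lay above the other 4 gPS arrays. The log2 difference was -1.94 ± 0.15 (SE, adjusted p = 5.63e-10) between gPS cells and GSC, or -2.08 without gPS replicate 1, and 2.32 ± 0.17 (SE, adjusted p = 1.98e-10) between GSC and ESC.

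Psmb8, the immune form of the chymotrypsin-like subunit, did not follow the same order. It had levels of 5.08, 4.86, 4.92, 5.67 and 5.04 in gPS, 6.46, 6.26 and 6.16 in ESC_like and 6.55, 6.71 and 6.74 in GSC. It had 4.63, 4.69 and 4.66 in NSC, 5.84, 5.55 and 5.90 in MEF and 4.73, 4.62 and 4.75 in ESC. GSC, ESC_like and MEF were all above ESC and NSC with no overlap, and ESC_like lay below GSC and above the gPS arrays. Psmb8 was lower in gPS cells than in GSC (-1.55 ± 0.14, SE, adjusted p = 8.12e-09) and than in ESC_like cells (-1.18 ± 0.14, SE, adjusted p = 3.09e-06). Relative to ESC it was higher in ESC_like cells by 1.59 ± 0.16 (SE), in GSC by 1.97 ± 0.16 (SE) and in MEF by 1.06 ± 0.16 (SE). The MEF call was lost without MEF replicate 3 (0.99) or with array medians removed (0.97). Another Psmb8 probe set was dim, with a mean of 3.11, and averaging both ended every Psmb8 call except that between GSC and ESC.

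Psme1, the alpha chain of PA28, moved with Psmb9 and Psmb10. Its levels were 9.70, 9.43, 9.96, 9.97 and 10.35 in gPS, 9.64, 9.56 and 9.56 in ESC_like and 11.41, 11.42 and 11.55 in GSC. NSC had 8.92, 8.78 and 8.89, MEF 8.91, 8.95 and 8.82 and ESC 9.30, 9.14 and 9.14. GSC lay above all other arrays, and the gPS and ESC_like arrays lay above those of ESC, which lay above NSC and MEF. The difference was -1.58 ± 0.14 (SE, adjusted p = 3.95e-09) between gPS cells and GSC and 2.27 ± 0.15 (SE, adjusted p = 8.66e-11) between GSC and ESC. Between gPS cells and ESC it was 0.69 ± 0.14 (SE, adjusted p = 8.43e-04), under 2-fold.

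**Figure D2:**
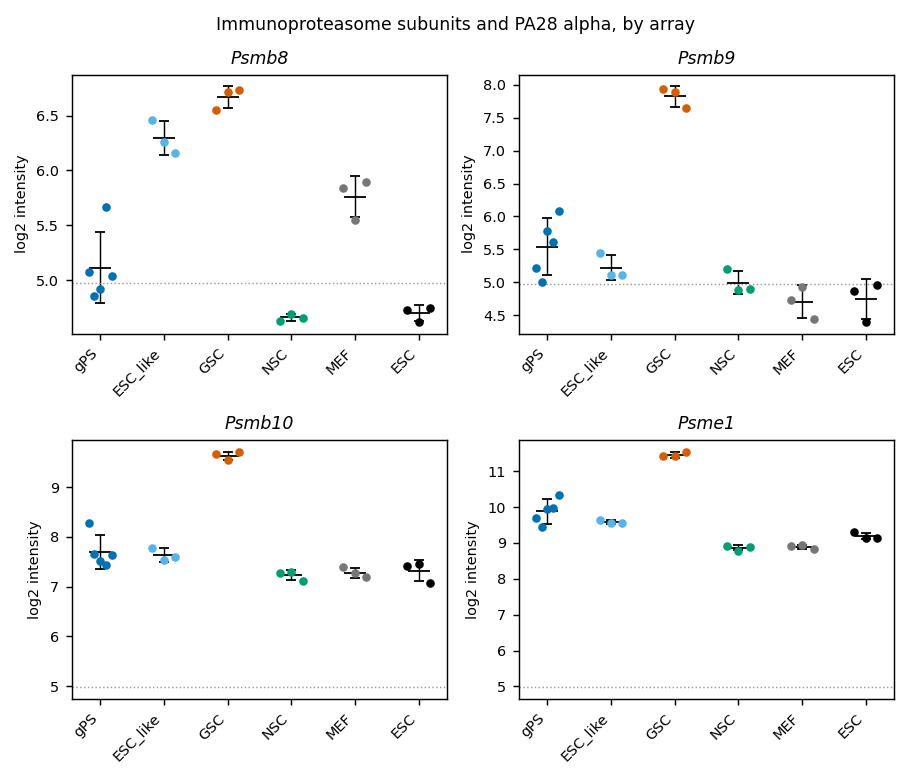
Points are the log2 intensities of Psmb8, Psmb9, Psmb10 and Psme1 on each array, in the order gPS, ESC_like, GSC, NSC, MEF and ESC, with bars for the mean and SD of each group and a dotted line at 4.98, the median of all values. The GSC points lie on top in each panel, and Psmb8 is also raised in ESC_like and MEF.

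Of the constitutive partners of these subunits, Psmb5 went the other way by less than 2-fold, and Psmb6 and Psmb7 did not pass the adjusted p. Psmb5, the constitutive counterpart of Psmb8, was at 11.45 ± 0.21 in gPS cells (SD, n = 5) and 11.02 ± 0.09 in GSC (SD, n = 3), a difference of 0.44 ± 0.11 (SE, adjusted p = 0.00144), which is under 2-fold. Psmb6, the counterpart of Psmb9, differed by -0.15 ± 0.08 (SE, adjusted p = 0.147) between gPS cells and GSC, and Psmb7, the counterpart of Psmb10, by 0.18 ± 0.10 (SE, adjusted p = 0.122). Between GSC and ESC the differences were -0.34 ± 0.12 for Psmb5, 0.16 ± 0.09 for Psmb6 and -0.12 ± 0.11 for Psmb7 (SE). Only that of Psmb5 had an adjusted p under 0.05. Probe sets differ in their response, so levels of different subunits cannot be turned into a ratio of immune to constitutive forms.

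Of the immune subunit genes, Psmb8 and Psmb9 sit among genes of antigen presentation. On chromosome 17 Psmb9, Tap1, Psmb8 and Tap2 follow each other in the RefSeq gene table. Psmb10 lies apart on chromosome 8, between Ctrl and Lcat, and on chromosome 14 Psme1 and Psme2 are separated by Emc9. The 250 bases before the annotated start are shown for Psmb8, Psmb9, Psmb10 and Psme1, which were called between gPS cells and GSC, and for Psmb5 as a constitutive gene that was not. They are RefSeq sequences of the build GRCm38.p6, written in the direction of transcription. Capitals mark matches to the interferon gamma activated site TTCNNNGAA, the CCAAT box (CCAAT or its reverse ATTGG) and the antioxidant response element TGACNNNGC.
Psmb8, chr17:34197945-34198194, plus strand: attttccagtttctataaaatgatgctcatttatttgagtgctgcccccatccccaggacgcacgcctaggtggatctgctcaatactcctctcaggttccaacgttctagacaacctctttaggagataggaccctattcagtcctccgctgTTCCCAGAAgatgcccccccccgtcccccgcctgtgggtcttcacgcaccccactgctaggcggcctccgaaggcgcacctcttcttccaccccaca
Psmb9, chr17:34187331-34187580, minus strand: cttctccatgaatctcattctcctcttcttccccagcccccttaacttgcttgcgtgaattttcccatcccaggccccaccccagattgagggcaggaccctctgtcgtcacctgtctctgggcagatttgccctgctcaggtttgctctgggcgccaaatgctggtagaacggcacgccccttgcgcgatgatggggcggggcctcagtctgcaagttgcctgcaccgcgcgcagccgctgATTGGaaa
Psmb10, chr8:105938393-105938642, minus strand: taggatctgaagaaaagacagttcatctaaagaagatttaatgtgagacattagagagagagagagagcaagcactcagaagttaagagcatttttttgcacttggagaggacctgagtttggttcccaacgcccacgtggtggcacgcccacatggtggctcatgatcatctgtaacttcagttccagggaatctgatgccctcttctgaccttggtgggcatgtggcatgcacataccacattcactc
Psme1, chr14:55578244-55578493, plus strand: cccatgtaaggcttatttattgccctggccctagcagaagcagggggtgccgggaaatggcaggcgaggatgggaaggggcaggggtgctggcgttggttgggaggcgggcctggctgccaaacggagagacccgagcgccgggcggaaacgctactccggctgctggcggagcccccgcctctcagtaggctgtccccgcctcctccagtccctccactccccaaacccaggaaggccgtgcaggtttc
Psmb5, chr14:54617996-54618245, minus strand: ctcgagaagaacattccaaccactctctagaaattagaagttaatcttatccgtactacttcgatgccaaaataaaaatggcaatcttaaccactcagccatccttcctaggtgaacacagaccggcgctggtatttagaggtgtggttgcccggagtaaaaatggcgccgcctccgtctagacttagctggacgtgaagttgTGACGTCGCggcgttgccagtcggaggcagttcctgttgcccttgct

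Of these 5 windows, that of Psmb8 held TTCCCAGAA, starting 97 bases before the annotated start. That of Psmb9 held ATTGG 8 bases before it, and that of Psmb5 held TGACGTCGC 47 bases before it. A further motif, the core of the interferon-stimulated response element, which is GAAA followed after any 2 bases by another GAAA, was searched on both strands like the others and was found in 0 of the 4 immune windows, in 3 of 41 proteasome windows and in 2.98% of 32851 windows of all genes. The interferon gamma activated site was in 1 of the 4 immune windows, in 2 of the 41 and in 7.02% of all. The CCAAT box was in 14 of the 41 (34.1%) and in 33.8% of all, and the antioxidant response element in 5 of the 41 (12.2%) and in 10.2% of all. RefSeq windows were matched for 39 of the 47 genes. A match describes letters in the window and does not show that a factor binds there.

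Genes that load the cut peptides onto MHC class I molecules were counted beside the immune subunits. Of 11 measured genes of this list, 0 were higher and 7 lower in gPS cells than in GSC, beside 9.10% and 10.9% of all genes. The median difference was -1.17, against 0.02 over all genes. Erap1, which trims peptides, differed by -4.61 ± 0.14 (SE), Tapbp, the tapasin that bridges transporter and MHC, by -2.43 ± 0.25 (SE) and Nlrc5, the activator of MHC class I transcription, by -2.15 ± 0.18 (SE). Tap2, a chain of the peptide transporter and the neighbour of Psmb8, differed by -1.33 ± 0.15 (SE). Tap1, the other chain, which lies between Psmb9 and Psmb8, differed by -0.01 and was not called. Between GSC and ESC 5 of the 11 were higher and 0 lower, beside 13.1% and 10.2% of all genes. Among the 5 were Erap1 at 4.86 ± 0.16 (SE) and Tapbp at 3.55 ± 0.28 (SE).

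In ESC_like cells, where Psmb8 alone of the immune subunits was called higher than in ESC, 4 of the 11 MHC class I genes were also higher than in ESC. They were Erap1 at 1.34 ± 0.16 (SE), Tapbp at 1.08 ± 0.28 (SE), and H2-K1 and H2-D1, which encode MHC class I heavy chains, at 1.04 ± 0.29 (SE) and 1.03 ± 0.20 (SE). Of all genes, 7.21% were called between ESC_like cells and ESC, in either direction. Between gPS and ESC_like cells 4 of the 11 were lower in gPS cells, with H2-K1 at -1.52 ± 0.26 (SE), B2m, the light chain, at -1.40 ± 0.18 (SE), H2-D1 at -1.30 ± 0.18 (SE) and Erap1 at -1.09 ± 0.14 (SE). In that comparison 4.85% of all genes were called, in either direction. Of 9 measured genes of interferon signalling, 4 were lower and 0 higher in gPS cells than in GSC. They were the kinase genes Jak1 at -2.60 ± 0.13 (SE) and Jak2 at -1.55 ± 0.18 (SE) and the transcription factor genes Irf1 at -2.47 ± 0.15 (SE) and Irf8 at -1.24 ± 0.16 (SE). Between gPS cells and GSC 10.9% of all genes were lower and 9.10% higher. Irf1 averaged 8.45 in gPS, 8.62 in ESC_like, 10.92 in GSC, 7.11 in NSC, 7.90 in MEF and 7.66 in ESC.

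Immune cells and fibroblasts also express these genes, so markers of both were read on the same arrays. The summed linear intensity of 7 macrophage markers was 253 to 712 in gPS, 1326 to 1485 in ESC_like, 2211 to 2383 in GSC, 178 to 208 in NSC, 709 to 836 in MEF and 400 to 438 in ESC. Lyz2 gave most of it in GSC and ESC_like, with a mean level of 6.35 in gPS, 9.95 in ESC_like, 10.96 in GSC, 4.98 in NSC, 8.33 in MEF and 4.80 in ESC. In GSC Cd68 averaged 6.77, Csf1r 6.34 and Adgre1 5.36, above the median of all values, while Cd14 at 4.68, Ptprc at 3.84 and Aif1 at 3.50 were below it. In ESC Cd68 averaged 7.92, higher than in GSC, and Csf1r 6.01. The sum of 6 fibroblast markers was 782 to 2262 in gPS, 3381 to 4338 in ESC_like, 1180 to 1485 in GSC, 586 to 822 in NSC, 19079 to 20420 in MEF and 146 to 180 in ESC. Psmb8, Psmb9, Psmb10 and Psme1 were lower on every MEF array than on the GSC arrays, and Psmb8 was called higher in MEF than in ESC (1.06). The sum of 5 markers of testis somatic cells was 154 to 193 in gPS, 175 to 186 in ESC_like, 185 to 268 in GSC, 251 to 281 in NSC, 170 to 193 in MEF and 148 to 173 in ESC. Among these markers Wt1 averaged 6.42 in GSC, against 3.61 to 4.80 in the other groups. Of the 5, 1 was called higher in GSC than in ESC, beside 13.1% of all genes, and 4 were not called. The median difference of the 5 was -0.04. The part of such cells in the Psmb8 level of ESC_like, or in the immune subunits of GSC, was not tested.

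The 31 constitutive subunits of the 20S core and the 19S cap changed by small steps. Between gPS cells and GSC 0 of the 31 were called, with differences from -0.91 for Psmd2 to 0.86 for Psmd8. At the adjusted p alone 16 were higher in gPS cells and 5 lower, where 24.3% of all genes were higher and 26.5% lower. That is 51.6% higher and 16.1% lower, while of all genes with a mean level over 10, 43.0% were higher and 28.0% lower. Without GSC replicate 1, the array with the sign of shorter RNA, 14 were higher and 5 lower, beside 22.3% and 24.7% of all genes. The median difference of the 31 was then 0.16, against 0.22 with all arrays. Without gPS replicate 1, 16 were higher and 6 lower. When probe sets ending in x_at, s_at or a_at were dropped, so that some genes were read from another set, Psmd11 (1.10) and Psmc6 (1.06) were called higher in gPS cells. Among the 7 alpha ring genes 4 were higher and 1, Psma4, lower, and of the 7 constitutive beta genes 2 were higher (Psmb3 and Psmb5) and 2 lower (Psmb1 and Psmb4). Of the 6 ATPases 3 were higher and 0 lower, and of the 11 other 19S subunits 7 were higher and 2 lower.

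Between gPS cells and ESC 29 of the 31 differences were above 0, beside 53.6% of the genes with a mean level over 10. Their median was 0.25, against 0.02 over all genes. At the adjusted p alone 11 were higher (35.5%) and 0 lower, while 13.6% of all genes were higher and 11.4% lower. Of the genes with a mean level over 10, 18.5% were higher and 14% lower. Without gPS replicate 1 there were 10 higher and 0 lower, with a median of 0.21. ESC_like cells gave a like picture against ESC, with 24 of the 31 above 0 and a median of 0.24 (-0.09 over all genes). At the adjusted p alone 11 were higher and 1, Psmb6, lower, where 15.1% of all genes were higher and 13.1% lower. Of the genes with a mean level over 10, 54.3% were above 0, and 20% were higher and 14.4% lower at the adjusted p. Both comparisons share the ESC arrays. Between gPS and ESC_like cells 2 were higher and 3 lower, beside 14.8% and 14.5% of all genes, or 2 and 5 without gPS replicate 1.

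The mean level over the 31 subunits, which describes the set and was not tested, was 11.31 to 11.55 on the gPS arrays, with replicate 1 the highest. It was 11.34 to 11.40 in ESC_like, 11.16 to 11.27 in GSC, 11.10 to 11.24 in NSC, 11.16 to 11.22 in MEF and 11.11 to 11.17 in ESC. The gPS and ESC_like arrays thus lay above all others, by a margin that is small on any single gene. gPS cells had the highest group mean for 12 of the 31 genes, ESC_like for 9, GSC for 8, MEF for 2, and NSC and ESC for 0. The lowest was in GSC for 9, in MEF for 8, in NSC for 6, in ESC for 6, in ESC_like for 2 and in gPS cells for 0. How often each group was highest or lowest among all genes was not counted, so these counts may not be particular to the proteasome.

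Psmc1, an ATPase whose tail helps to open the gate of the core, had the largest of these differences between gPS cells and ESC. It was at 11.00, 10.60, 10.64, 10.82 and 10.43 in gPS, 10.52, 10.55 and 10.31 in ESC_like, 10.64, 10.79 and 10.68 in GSC, 10.55, 10.48 and 10.22 in NSC, 10.52, 10.55 and 10.44 in MEF and 9.95, 9.81 and 9.82 in ESC. ESC alone stood apart, below every other array. The difference of gPS cells from ESC was 0.84 ± 0.12 (SE, adjusted p = 1.91e-05). Psma7, an alpha ring subunit, differed by 0.58 ± 0.09 (SE, adjusted p = 7.14e-05), with gPS arrays at 11.28, 11.06, 11.28, 11.36 and 11.07 and ESC arrays at 10.65, 10.61 and 10.62. Psmc5, another ATPase, differed by 0.60 ± 0.11 (SE, adjusted p = 4.88e-04) between gPS cells and ESC and by 0.68 ± 0.13 (SE, adjusted p = 3.51e-04) between ESC_like cells and ESC.

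Psmd11, whose human counterpart is known for a high level in embryonic stem cells, was at 12.05 ± 0.03 in gPS (SD, n = 5), 12.44 ± 0.08 in ESC_like, 11.72 ± 0.05 in GSC, 11.96 ± 0.03 in NSC, 11.78 ± 0.03 in MEF and 12.12 ± 0.02 in ESC (SD, n = 3 each). ESC_like lay above all other arrays, and GSC, the group with the lowest mean, overlapped MEF. The difference between gPS cells and GSC was 0.32 ± 0.08 (SE, adjusted p = 0.0011) on this probe set and 0.77, 1.10 and 1.42 on the next 3 of its 8 probe sets. Psmd8, a lid subunit, was at 11.00, 10.84, 11.08, 11.07 and 11.18 in gPS, 11.25, 11.23 and 11.12 in ESC_like, 10.02, 10.24 and 10.25 in GSC, 11.05, 11.05 and 10.85 in NSC, 11.73, 11.81 and 11.66 in MEF and 10.83, 10.71 and 10.81 in ESC. It was lowest in GSC and highest in MEF with no overlap with any other group. Its differences, 0.86 ± 0.10 (SE) between gPS cells and GSC and 0.95 ± 0.11 (SE) between MEF and ESC, stayed under 2-fold.

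Psmd2, which docks ubiquitin receptors at the base of the cap, was the constitutive subunit that was called. It stood at 11.44 ± 0.17 in gPS (SD, n = 5), 11.18 ± 0.17 in ESC_like, 12.35 ± 0.13 in GSC, 11.24 ± 0.17 in NSC, 11.28 ± 0.06 in MEF and 11.00 ± 0.11 in ESC (SD, n = 3 each). GSC lay above all other arrays. The difference between GSC and ESC was 1.36 ± 0.13 (SE, adjusted p = 1.21e-08), and averaging in a dim probe set (mean 3.54) brought it to 0.74, which ended the call. Psmd5, a chaperone that holds an ATPase module during assembly of the cap, was also highest in GSC. It was at 9.83, 9.74, 9.88, 9.87 and 9.72 in gPS, 9.83, 9.89 and 9.81 in ESC_like, 10.88, 10.89 and 10.81 in GSC, 9.34, 9.17 and 9.22 in NSC, 10.03, 9.92 and 9.93 in MEF and 9.71, 9.78 and 9.67 in ESC. GSC lay above and NSC below every other array. Psmd5 differed by -1.05 ± 0.08 (SE, adjusted p = 5.73e-10) between gPS cells and GSC and by 1.14 ± 0.09 (SE, adjusted p = 9.75e-10) between GSC and ESC. The other chaperones of the cap, Psmd9 and Psmd10, were not called in any comparison.

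**Figure D3:**
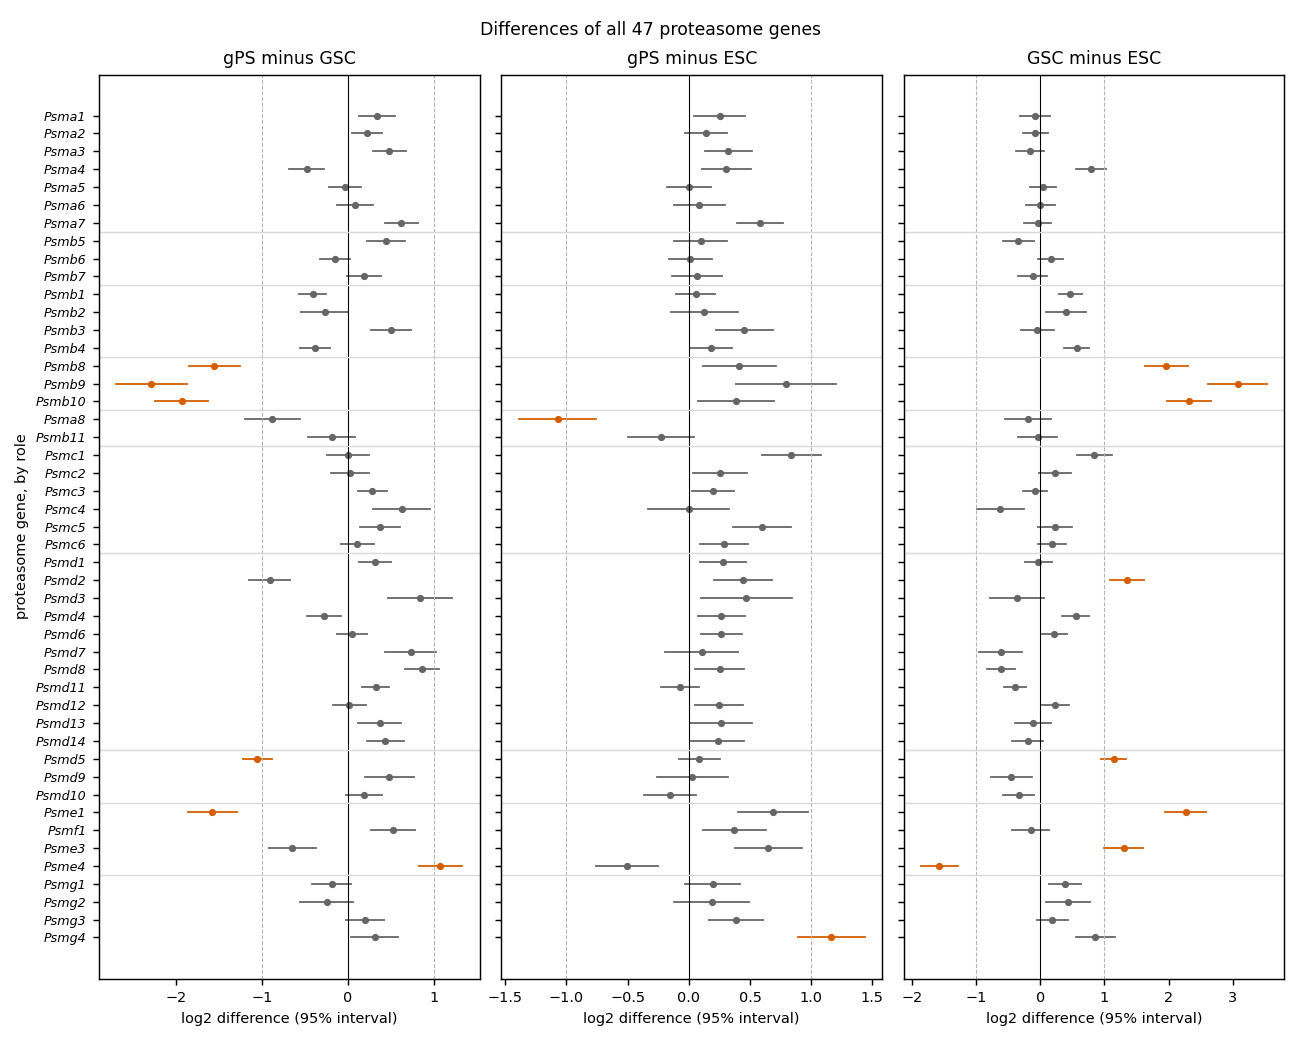
Points are log2 differences of all 47 proteasome genes with 95% intervals, for gPS minus GSC, gPS minus ESC and GSC minus ESC, with dashed lines at 2-fold and orange for called genes. The immune subunits, Psmd5 and Psme1 lie left of the line for gPS minus GSC and, with Psmd2 and Psme3, right of it for GSC minus ESC, while in the middle panel most points lie slightly right of 0.

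Psma8, the alpha subunit of the testis proteasome and a close relative of Psma7, separated the pluripotent and germ line groups from the somatic ones. It was at 7.62, 8.22, 8.14, 8.16 and 7.88 in gPS, 7.30, 7.39 and 7.14 in ESC_like and 8.72, 9.11 and 8.82 in GSC. In NSC it was at 3.34, 3.38 and 3.82 and in MEF at 3.93, 4.02 and 3.50, below the median of all values, against 9.00, 9.13 and 9.09 in ESC. From low to high the group means ran NSC, MEF, ESC_like, gPS, GSC and ESC, where NSC and MEF overlapped, as did GSC and ESC. Psma8 was lower in NSC than in ESC, with a log2 difference of -5.56 ± 0.17 (SE, adjusted p = 1.81e-16), and lower in MEF than in ESC, with -5.26 ± 0.17 (SE, adjusted p = 4.14e-16), sizes that rest on levels that may be background. ESC_like cells differed from ESC by -1.80 ± 0.17 (SE, adjusted p = 7.73e-08) and gPS cells by -1.07 ± 0.15 (SE, adjusted p = 2.39e-05), or by -0.98 without gPS replicate 1, which ends the call. The gPS arrays lay below the GSC arrays, at -0.88 ± 0.15 (SE, adjusted p = 4.72e-05), under 2-fold. Psmb11, the thymus form of the chymotrypsin-like subunit, had group means between 3.30 and 3.78 throughout.

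Psme4 encodes PA200, an activator of the core linked to histone breakdown in the testis. It was at 10.59, 10.94, 11.21, 11.10 and 10.95 in gPS, 10.73, 10.77 and 10.96 in ESC_like, 10.12, 9.72 and 9.80 in GSC, 10.22, 10.26 and 10.29 in NSC, 10.14, 10.04 and 10.10 in MEF and 11.45, 11.55 and 11.37 in ESC. ESC lay above all other arrays, and GSC, NSC and MEF below those of gPS, ESC_like and ESC. Psme4 was higher in gPS cells than in GSC by 1.07 ± 0.12 (SE, adjusted p = 1.82e-07), or by 0.99 without GSC replicate 2, which ends the call. Its log2 difference from ESC was -1.58 ± 0.14 in GSC (SE, adjusted p = 3.29e-09), -1.21 ± 0.14 in NSC (SE, adjusted p = 1.78e-07) and -1.36 ± 0.14 in MEF (SE, adjusted p = 2.52e-08). The next 2 probe sets of Psme4 gave 1.30 and 1.26 between gPS cells and GSC and -1.56 and -1.55 between GSC and ESC. The mean over all 6 probe sets, 3 of them with means from 3.22 to 4.92, ended these calls.

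Psme3, which forms the nuclear PA28 gamma, was at 9.36, 9.00, 8.79, 8.74 and 9.26 in gPS, 8.98, 8.90 and 9.07 in ESC_like, 9.53, 9.66 and 9.84 in GSC, 8.81, 8.66 and 8.67 in NSC, 8.73, 8.72 and 8.63 in MEF and 8.55, 8.24 and 8.34 in ESC. GSC was highest and ESC lowest, with no overlap with the other groups. The difference between GSC and ESC was 1.30 ± 0.14 (SE, adjusted p = 1.45e-07). Another probe set gave 0.65 for it, and averaging all 3 sets (0.54) ended the call. Psmf1, the inhibitor PI31, was not called, and its probe sets disagreed in sign between gPS cells and GSC, at 0.52 on the brightest and -0.74, -0.87 and -1.03 on the other 3. Psmc6, an ATPase gene, likewise had 0.18 on the brightest set and -1.69 and -1.55 on the other 2 between GSC and ESC, so that its small differences hold for 1 probe set only.

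Of the chaperones that assemble the 20S core, Psmg4 and Psmg1 were called. Psmg4, which acts with Psmg3 on the alpha ring, was at 9.44, 8.97, 9.36, 9.57 and 9.76 in gPS, 10.05, 9.78 and 9.90 in ESC_like, 8.97, 9.22 and 9.14 in GSC, 9.12, 9.13 and 9.04 in NSC, 8.61, 8.51 and 8.48 in MEF and 8.23, 8.17 and 8.36 in ESC. ESC_like lay above and ESC below all other arrays. Psmg4 was higher than in ESC by 1.16 ± 0.13 in gPS cells (SE, adjusted p = 1.26e-06) and by 1.65 ± 0.15 in ESC_like cells (SE, adjusted p = 2.77e-08). Averaging in a dim probe set, with a mean of 3.08, ended both calls at 0.66 and 0.85.

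Psmg1, which pairs with Psmg2, was at 11.23, 10.82, 10.79, 10.78 and 10.73 in gPS, 10.73, 10.53 and 10.57 in ESC_like, 10.88, 11.13 and 11.17 in GSC, 9.95, 9.97 and 9.98 in NSC, 9.65, 9.63 and 9.54 in MEF and 10.72, 10.64 and 10.66 in ESC. NSC and MEF lay below all other groups. MEF differed from ESC by -1.06 ± 0.12 (SE, adjusted p = 1.80e-07), and NSC by -0.71 ± 0.12 (SE, adjusted p = 4.56e-05), under 2-fold. Psmg2 and Psmg3 were not called.

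**Figure D4:**
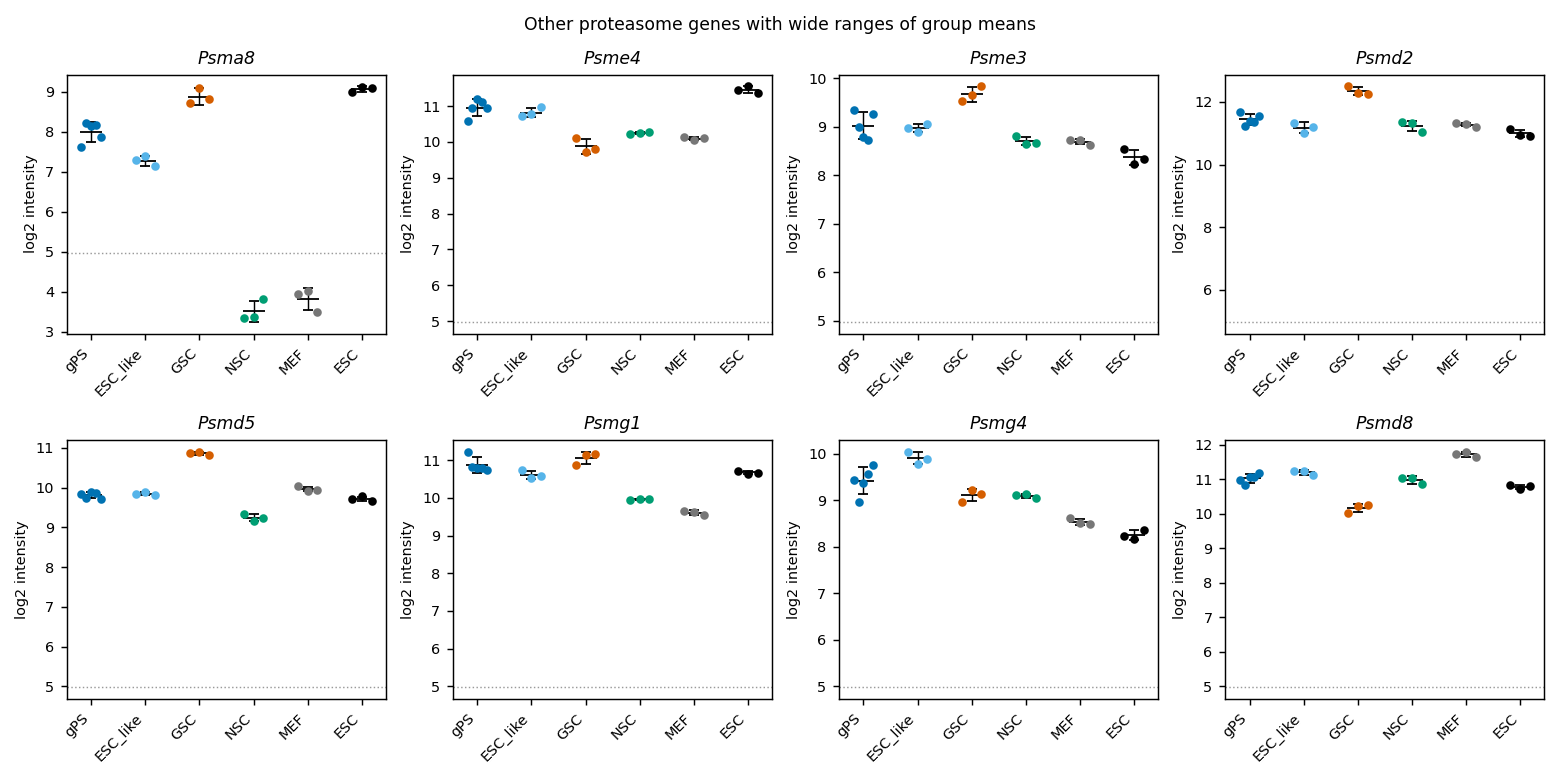
Points are log2 intensities on each array for Psma8, Psme4, Psme3, Psmd2, Psmd5, Psmg1, Psmg4 and Psmd8, by group as labelled, with bars for mean and SD and a dotted line at 4.98, the median of all values. Psma8 lies under the line in NSC and MEF. Psmd8 is lowest in GSC, and Psme3, Psmd2 and Psmd5 are highest there. Psme4 has its lowest group mean in GSC, with points that overlap those of MEF.

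Factors that bind the proteasome without being subunits were read from further lists. Of 9 measured, 1 was higher and 1 lower in gPS cells than in GSC, beside 9.10% and 10.9% of all genes, so these counts are near the general share. Ecpas, which tethers the cap to the core, averaged 7.46 in gPS, 7.73 in ESC_like, 9.79 in GSC, 8.19 in NSC, 8.51 in MEF and 6.35 in ESC. It differed by -2.32 ± 0.10 (SE) between gPS cells and GSC and by 3.44 ± 0.12 (SE) between GSC and ESC. Uchl5, a deubiquitinase of the cap, moved the other way, with 1.10 ± 0.11 (SE) between gPS cells and GSC and -1.09 ± 0.13 (SE) between GSC and ESC.

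Of 9 measured shuttles and segregase genes, which carry or pull out ubiquitin-tagged proteins, 2 were higher and 0 lower in gPS cells than in GSC. These were the shuttles Ubqln2 at 2.31 ± 0.11 (SE) and Ubqln4 at 1.99 ± 0.16 (SE). Of 8 measured regulators of proteasome genes, 0 were higher and 1 lower, namely Stat3 at -2.68 ± 0.14 (SE), and 2 were higher in GSC than in ESC, Stat3 at 2.55 ± 0.16 (SE) and Nfe2l1, the activator of proteasome genes when the proteasome is impaired, at 1.05 ± 0.17 (SE). Of all genes, 9.10% were higher and 10.9% lower in gPS cells than in GSC, and 13.1% were higher in GSC than in ESC.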

How the data were processed

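Biotin-labelled RNA of 20 samples was hybridised to Affymetrix mouse arrays, per the labels' protocols. The deposited values are log2 intensities per probe set, which the authors made with RMA according to the notes they deposited, a method that corrects background, normalizes quantiles and summarises probes; its version and whether all arrays were processed together are not given in the sources used here. They were used as deposited. The number of arrays limits the precision.

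The table held 45101 probe sets, of which 64 are controls and were dropped; 34945 carried 1 gene symbol, 932 more than one and 9160 no symbol, and for 34741 the symbol was brought up to date through the gene identifier. Each gene was read from its probe set with the highest mean, giving 18193 genes. In R 4.3.3, lmFit and eBayes of limma 3.58.1 fitted 6 group means to all 20 arrays with no covariate, for 7 comparisons and a moderated F test, with Benjamini-Hochberg adjustment over all genes. Errors marked SE are limma's. All members could be named; of each companion list, at most 4 called genes of largest difference and at most 2 uncalled ones of smallest difference. The members and lists were chosen with earlier results of these data known. Companion and marker lists cover MHC class I loading, interferon signalling, proteasome-bound factors, regulators, shuttles, and pluripotent, germ line, neural, fibroblast, macrophage and testis somatic markers. The fit was tested on simulated data. Promoter windows are RefSeq's, of GRCm38.p6. Alternatives were quantile normalization, array medians removed, the mean of probe sets, probe sets of shared suffix or dim genes left out, the fit without ESC_like or on each pair of groups by itself, robust eBayes with a trend, other fold thresholds, a replicate block and each array left out. Leaving out gPS or GSC replicate 1 for the counts of constitutive subunits was chosen after seeing the data. Figures were drawn with matplotlib 3.10.9, and tables made with pandas 2.3.3 and numpy 2.4.6 under Python 3.11.15.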

Additional observations from a re-analysis of the deposited data

Results flagged for a closer look

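In the group of 5 gPS arrays, 4 of the 47 proteasome genes had 1 array far from the others by Dixon's test, which flags about 1 in 20 such groups by chance. Psma4, an alpha ring subunit, was at 11.85 in gPS replicate 1 and between 11.44 and 11.48 in the other 4. Psmb10 was at 8.29 in the same replicate and between 7.43 and 7.65 in the others, and the 20S assembly chaperone Psmg1 at 11.23 and between 10.73 and 10.82. gPS replicate 1 also correlated least with its group, and it had the highest mean level of the 31 constitutive subunits. Psmb8 was at 5.67 in gPS replicate 4 and between 4.86 and 5.08 in the others.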

How the results depend on the processing

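No call of a single proteasome gene was reversed under any alternative run: of 520 values with 1 array left out, 517 kept their call and 3 fell just under 2-fold, and of 272 values under the other settings 259 kept it and 13 did not. These counts include values that could not change. A call at 2-fold cannot be lost at 1.5-fold or with no fold threshold. Leaving out an array of a group outside the comparison does not alter the difference. Averaging all probe sets of a gene, most of the extra ones dim, gave 4 proteasome genes called for gPS minus GSC and 6 for GSC minus ESC, against 6 and 8. It gave 1 for gPS minus ESC, 0 for gPS minus ESC_like, 1 for ESC_like minus ESC, 1 for NSC minus ESC and 2 for MEF minus ESC. Psmb8, the gene called for gPS minus ESC_like, was not among the genes tested with probe sets of shared suffix (x_at, s_at or a_at) or dim genes left out, which left 0 there. Leaving out the sets of shared suffix gave 7 called for gPS minus GSC and 9 for GSC minus ESC, since Psmd11 and Psmc6, read from other probe sets, were then called in both (-1.51 and -1.55 for GSC minus ESC). At 1.5-fold the counts were 14 proteasome genes for gPS minus GSC (6321 of all genes), 7 for gPS minus ESC (2382), 2 for gPS minus ESC_like (2493), 9 for ESC_like minus ESC (3030), 14 for GSC minus ESC (6804), 4 for NSC minus ESC (6305) and 7 for MEF minus ESC (6718). With no fold threshold they were 31 (9253), 20 (4555), 9 (5339), 17 (5131), 24 (9143), 10 (8615) and 11 (8835) in the same order. With 1 array left out the counts ranged from 5 to 6 (3574 to 3724) for gPS minus GSC, 1 to 2 (788 to 908) for gPS minus ESC, 1 to 1 (842 to 943) for gPS minus ESC_like, 3 to 3 (1273 to 1365) for ESC_like minus ESC, 8 to 8 (4151 to 4332) for GSC minus ESC, 2 to 2 (3888 to 3935) for NSC minus ESC and 3 to 4 (4229 to 4315) for MEF minus ESC, and from 37 to 41 (13321 to 13911) for the F test. Same-numbered arrays of different groups varied together weakly at most (r -0.17 to 0.27, 7 of 45 pairs over 0.1, and 9 of 18 arrays best with their own number). The fit with the replicate number as a block called 6 proteasome genes for gPS minus GSC, 2 for gPS minus ESC and 8 for GSC minus ESC, and changed no single-gene call. Levels near or under 5 limit what can be said of Psmb11, of Psma8 in NSC and MEF, of Psmb9 outside GSC, and of Psmb8 in gPS, NSC and ESC.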
